A study of Schizosaccharomyces pombe with 2 samples.

Results

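The 76 genes described here encode the proteins of the large (60S) subunit of the cytoplasmic ribosome of fission yeast, Schizosaccharomyces pombe. They were chosen by name: every gene probe whose systematic name belongs to a reference gene with a symbol of rpl followed by a number. All 76 such genes of the reference table had a probe, out of 5057 gene probes. They form 43 families: 12 proteins are encoded by 1 gene, 29 by 2 genes and 2 by 3 genes. Thus 64 of the 76 genes have at least 1 further copy. Copies are told apart by a final 01, 02 or 03, except rpl15, which has no such ending and was grouped with rpl1502. The acidic stalk proteins and the ubiquitin fusions of eL40 have other symbols and are given as a separate group.

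The deletion strain was ESY173, which lacks mga2 (mga2Δ below), and the control was KGY425 (WT below). Both were grown in YES, a rich medium, and held for 1.5 h without oxygen in an anaerobic chamber. The labels call the control WT, but by the design text of the series a deletion of sre1, which encodes the principal sterol-responsive transcription factor, was present in both strains and so on both sides of every ratio. Mga2 activates transcription of genes of lipid metabolism. There were 2 biological replicate pairs, each on 1 Agilent 2-colour array. Cy5 marked mga2Δ RNA on array 1 and WT RNA on array 2, with Cy3 for the other strain. No RNA from cells with oxygen was analysed here.

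Large-subunit proteins bind the 25S, 5.8S and 5S RNAs in fixed places: around the peptidyl transferase centre, along and at the end of the tunnel through which the new chain leaves, at the bases of the mobile stalks, and at the bridges to the small subunit. Ribosomal protein mRNAs are among the most abundant in growing yeast, and their transcription is known to follow growth conditions through the TORC1 kinase pathway. Many yeast ribosomal proteins are made from several closely similar genes, whose expression can differ.

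Each array held 15171 gene spots, 3 per probe, and no gene spot was saturated. The mga2 probe was well above background on 3 of 3 spots in WT on both arrays, and on 0 and 1 of 3 spots in mga2Δ, and its ratio fell (limma adjusted p = 1.26e-05). All 76 large-subunit probes were well above background in both channels of both arrays, so no member was lost to the filter, which kept 4964 probes for testing. Ratios are given as log2 of mga2Δ over WT after loess normalization, which sets them relative to genes of like brightness on the same array. A lower share of these mRNAs and a higher share of all others cannot be told apart. Means and SDs are over the 2 arrays, whose number limits the precision and leaves 1 residual degree of freedom per gene.

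Large-subunit probes were among the brightest on the arrays. Their log2 signal, averaged over strains and arrays, had a median of 15.8 against 10.4 for all probes tested, and 62 of the 76 lay in the top 5% and 71 in the top 10%. Of the 100 brightest probes 41 were large-subunit and 27 small-subunit probes. The brightest large-subunit probe was that of rpl3001, with a log2 signal of 16.5. The dimmest was that of rpl1603, at 9.78, which lay at the 36.1 percentile of all probes. A probe's signal also depends on its sequence, so no order of RNA levels is read from these values. Most of these spots were read from the scanner's low-gain scan: 203 and 205 of 228 spots in Cy5 and 178 and 133 in Cy3, on arrays 1 and 2.

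After loess, 14 of the 76 large-subunit genes were lower in mga2Δ and 0 were higher at an adjusted p of 0.05 (limma, Benjamini-Hochberg over 4964 genes). The 14 are 18.4% of the members, against 10.9% of all genes tested that were lowered; 18.4% of all genes tested were raised. At an unadjusted p under 0.05, 18 members (23.7%) were lower and 0 higher, where 17.6% of all genes tested were lower and 24.1% higher. The changes were small: the median over the 76 genes was −0.10, with −0.12 on array 1 and −0.16 on array 2, beside 0.00 for all genes tested. The means ran from −0.64 for rpl1603 to 0.20 for rpl3802, and only rpl1603 and rpl4102 changed by 0.5 or more in size. Of the 76 genes, 40 were below 0 on both arrays, a share of 52.6% beside 37.6% of all genes tested. Another 4 were above 0 on both arrays, as were 1990 of the 4964 genes tested. The sign changed between arrays in 32 members (42.1%), beside 22.3% of all genes tested. Of these members 26 were above 0 on array 1 and below 0 on array 2, and 6 the reverse. With median centring in place of loess 0 of the 76 passed, where 0.524% of all genes tested were lowered; in that setting 14 members were lower at an unadjusted p under 0.05, as were 8.12% of all genes tested. With 2.81 in place of 5.62 prior degrees of freedom in the test, 4 members (5.26%) passed as lower, near the 3.55% of all genes tested.

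**Figure D1:**
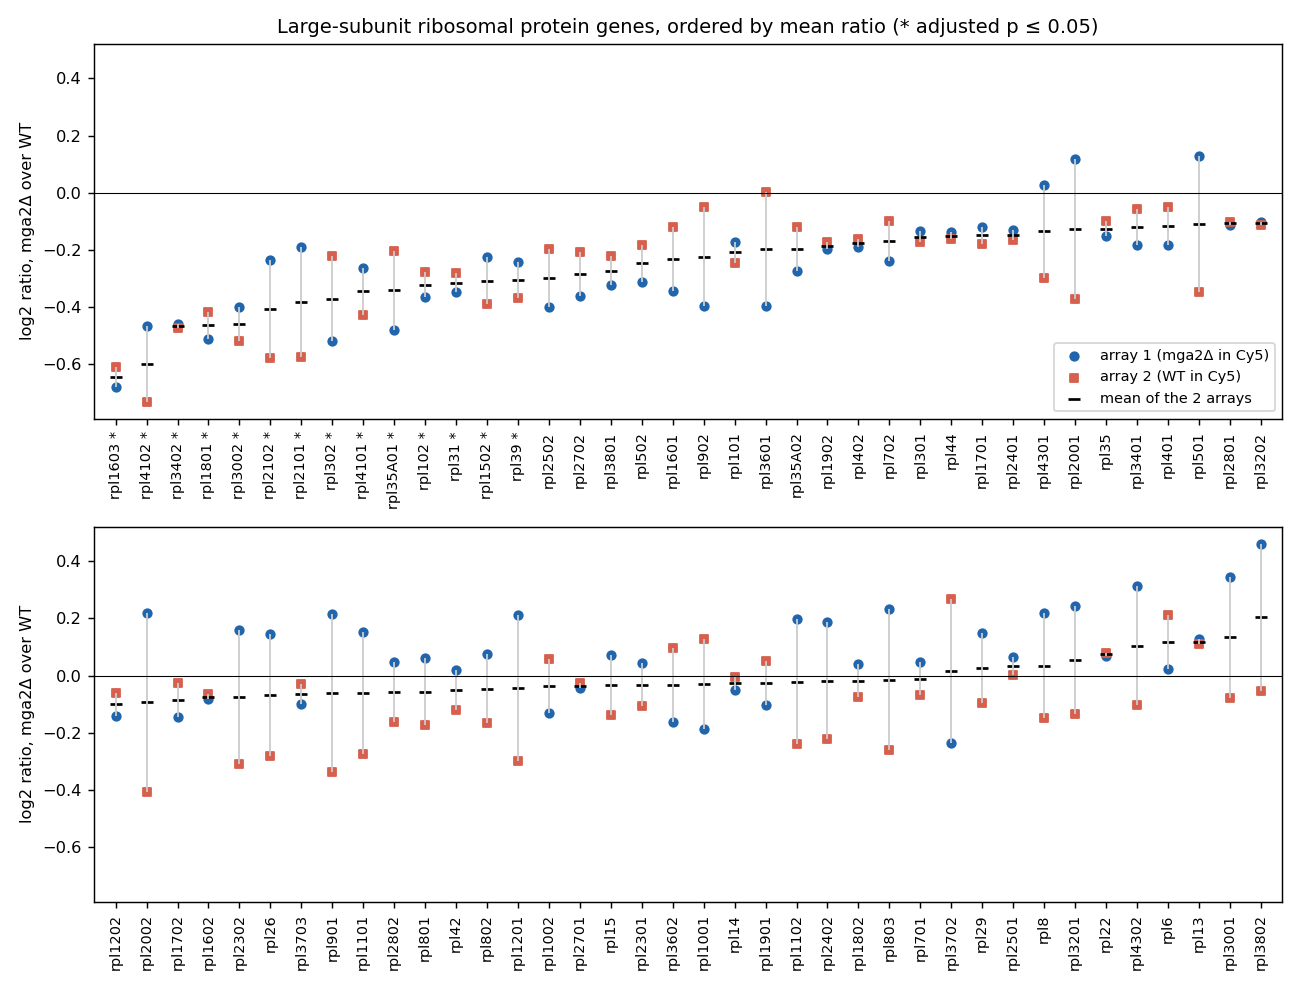
Log2 ratio of mga2Δ over WT of each of the 76 large-subunit genes on array 1 (circles) and array 2 (squares), with the mean as a bar, ordered by the mean; an asterisk marks an adjusted p of 0.05 or less. The 14 marked genes lie below 0 on both arrays, whereas many genes in the lower panel lie above 0 on array 1 and below 0 on array 2.

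The lowest ratio was that of rpl1603, 1 of 3 genes for uL13, a protein of the body of the subunit. After loess and scaling between arrays, its log2 signal was 10.16 and 10.04 in WT and 9.48 and 9.43 in mga2Δ (arrays 1 and 2). Before background correction and normalization the intensities on array 1 were 1236 in mga2Δ (Cy5) and 785 in WT (Cy3). On array 2 they were 430 in mga2Δ (Cy3) and 1260 in WT (Cy5). The strains thus overlapped only across dyes, and Cy5 was brighter than Cy3 over all genes, by a median log2 ratio of 1.24 and 0.87. The log2 ratio was −0.68 on array 1 and −0.61 on array 2, a mean of −0.64 ± 0.05 (SD, n = 2 arrays) or 64.0% of WT (limma adjusted p = 0.00293). This call was also made under 13 of 14 alternatives, with adjusted p from 3.12e-05 to 0.122, the last with median centring.

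Both genes for eL41, a very short basic peptide that lies in a bridge between the subunits, fell. The ratio of rpl4102 was −0.47 and −0.73, a mean of −0.60 ± 0.19 (adjusted p = 0.0068 by limma). Its partner rpl4101 was at −0.26 and −0.43, a mean of −0.35 ± 0.12 (adjusted p = 0.0348 by limma). Both copies of eL21 fell as well, at −0.41 ± 0.24 for rpl2102 and −0.38 ± 0.27 for rpl2101 (limma adjusted p = 0.0344 and 0.048). For the eL21 pair the arrays were far apart, with −0.24 and −0.19 on array 1 and −0.58 on array 2 for both genes, so the size rests largely on array 2. These were the only families with 2 copies tested in which both fell.

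In 8 further pairs of numbered copies, 2 of them with rpl1603, 1 copy fell. The arrays agreed most closely for rpl3402, a gene for eL34, with −0.46 and −0.47, a mean of −0.47 ± 0.01 (limma adjusted p = 0.00993). A gene for eL18, rpl1801, was at −0.51 and −0.42, a mean of −0.46 ± 0.07 (adjusted p = 0.0109 in the same limma fit). The third of this size was rpl3002, for eL30, a protein that in budding yeast binds its own transcript and limits its splicing, with −0.40 and −0.52 and a mean of −0.46 ± 0.09 (adjusted p = 0.012, limma). For these genes the 2 arrays differed by far less than the distance of either from 0.

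The protein uL3 reaches with a loop towards the peptidyl transferase centre. Its gene rpl302 was at −0.52 on array 1 and −0.22 on array 2, a mean of −0.37 ± 0.21 (limma adjusted p = 0.0405). The gene rpl102 encodes uL1, the protein of the stalk that guides spent tRNA out of the ribosome, and was at −0.37 and −0.28, a mean of −0.32 ± 0.06 (limma adjusted p = 0.038). Both fell, the first with a wider gap between the arrays than the second.

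At the tunnel, rpl39, the only gene for the small tunnel-lining protein eL39, was at −0.24 and −0.37, a mean of −0.31 ± 0.09 (adjusted p = 0.0474 by limma). The only gene for eL31, which sits at the tunnel exit, was at −0.35 and −0.28, a mean of −0.31 ± 0.05 (rpl31, adjusted p = 0.0399 by limma). A gene for the core protein eL15, rpl1502, was at −0.23 and −0.39, a mean of −0.31 ± 0.12 (limma adjusted p = 0.0499). These 3 were close to the threshold, and rpl2502, at −0.30 ± 0.14, lay just outside it (limma adjusted p = 0.0607). It encodes uL23, a docking protein at the tunnel exit.

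The last of the 14, rpl35A01, differed from the others in brightness. It encodes eL33, the protein known in humans as RPL35A, and its probe lay at the 99.3 percentile of all probes with a mean log2 signal of 16.2. Its ratio was −0.48 on array 1 and −0.20 on array 2, a mean of −0.34 ± 0.20 (limma adjusted p = 0.0487). When ribosomal protein probes took no part in the loess curve, the arrays came together at −0.46 and −0.44 (adjusted p = 0.0134 by limma, in a range of 0.0134 to 0.548 over 14 alternatives). With median centring it had the lowest ratio of all 76 genes, −0.99, from −0.31 on array 1 and −1.67 on array 2.

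The calls are given here by place in the subunit. Of all genes tested 10.9% were lowered and 37.6% were below 0 on both arrays. In places with 4 to 7 genes, 0 or 1 call cannot be told from that share. Of 7 genes for proteins near the peptidyl transferase centre (uL2, uL3 and uL16) 1 fell, with a median of −0.05. Of 5 genes for the tunnel wall (uL4, uL22 and eL39) 1 fell, but all 5 were below 0 on both arrays, with a median of −0.15. Of 7 genes for the tunnel exit 1 fell and 4 were below 0 on both arrays, with a median of −0.13. The 4 genes for uL18 and uL5, which carry the 5S RNA, had a median of −0.09, 0 of them fell and 1 was below 0 on both arrays. Of 4 genes for the bases of the mobile stalks (uL1 and uL11) 1 fell, with a median of −0.15. Of 4 bridge genes (eL24 and eL41) 2 fell, with a median of −0.25. These were the eL41 genes, whose probes were dim for large-subunit genes, at mean log2 signals of 12.2 and 12.1. The other 45 genes had a median of −0.07, and 8 fell. Single-copy genes had a median of −0.04 and copies of a family −0.11, with 2 of 12 and 12 of 64 called.

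No large-subunit gene passed the test as higher. The highest mean ratios were those of rpl3802 (0.20 ± 0.36), rpl3001 (0.13 ± 0.30), rpl13 (0.12 ± 0.01), rpl6 (0.12 ± 0.14) and rpl4302 (0.10 ± 0.30). In rpl3802, rpl3001 and rpl4302 array 1 was above 0, at 0.46, 0.35 and 0.31, and array 2 below, at −0.05, −0.08 and −0.10. In rpl13, at 0.13 and 0.11, and in rpl6, at 0.02 and 0.21, both arrays were above 0, but with limma adjusted p of 0.353 and 0.394. All 5 were below 0 with median centring, and rpl13 and rpl6 also in the authors' deposited ratios, where their means were −0.04 and −0.08.

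The ratio of a large-subunit gene followed the brightness of its probe. Of all genes tested 10.9% were lowered, 37.6% were below 0 on both arrays and 22.3% changed sign between them. Other genes of the same brightness were not set beside the members. Of the 19 dimmest members, with log2 signals from 9.78 to 14.8, 13 fell and all 19 were below 0 on both arrays, with a median of −0.32. Of the other 57 members, with signals from 14.8 to 16.5, only rpl35A01 fell, 21 were below 0 on both arrays and 32 changed sign between them, with a median of −0.06. Over the 76 genes signal and mean ratio had a Pearson correlation of 0.84 and a Spearman correlation of 0.69, given as a description over genes that share the same 2 arrays and dyes. With median centring the correlations were −0.31 and −0.26, and the medians of the dim and bright members were −0.66 and −0.68. The cause of the relation with brightness was not tested.

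**Figure D2:**
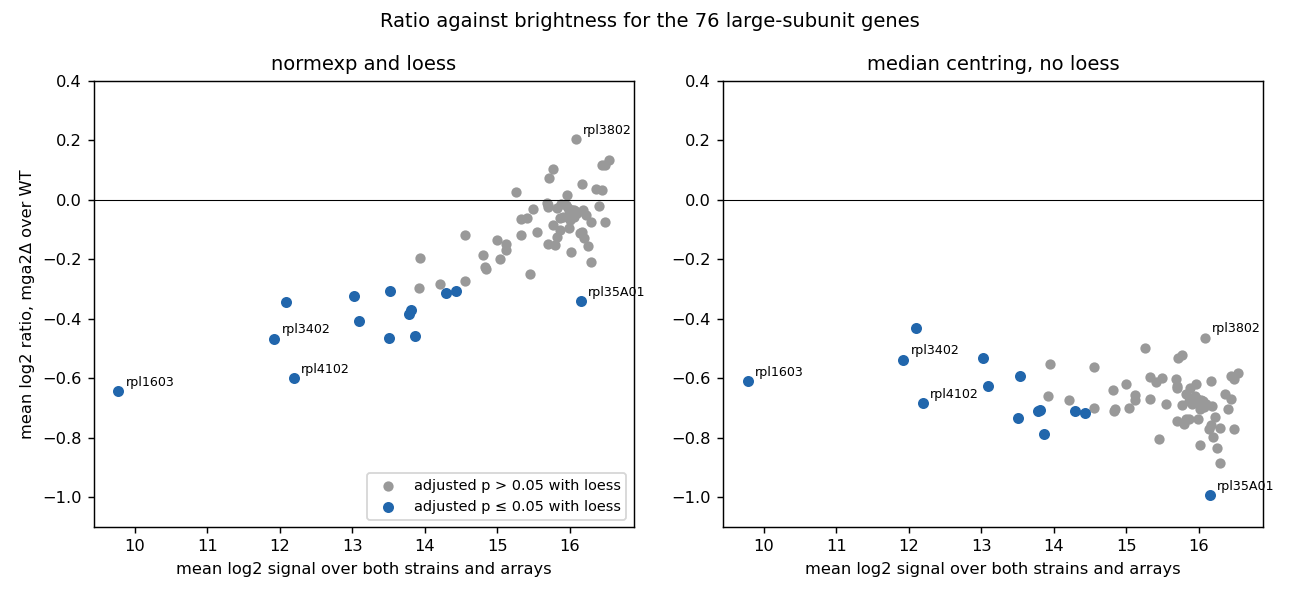
Mean log2 ratio of mga2Δ over WT against mean log2 signal over both strains and arrays for the 76 large-subunit genes, with loess (left) and with median centring (right); blue points are the 14 genes called with loess. With loess the dim genes lie lowest and the brightest around 0, and with median centring all 76 lie between −0.99 and −0.43.

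Large-subunit genes supply much of the bright end of the curve that loess fits. Before loess, the log2 ratio of Cy5 over Cy3 on array 1, with mga2Δ in Cy5, had a median of 1.24 over the members and of 1.24 over all genes. On array 2, with WT in Cy5, it was 2.26 over the members and 0.87 over all genes. Read as mga2Δ over WT and centred on each array's median gene, the 76 genes thus had a median of 0.01 on array 1 and of −1.40 on array 2, and 35 and 76 of them were below 0. The small-subunit genes stood at 1.36 and 2.33 on the same Cy5 over Cy3 scale, near the large-subunit ones. With 1 array per dye orientation, dye, brightness and strain cannot be told apart in this part of the curve.

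**Figure D3:**
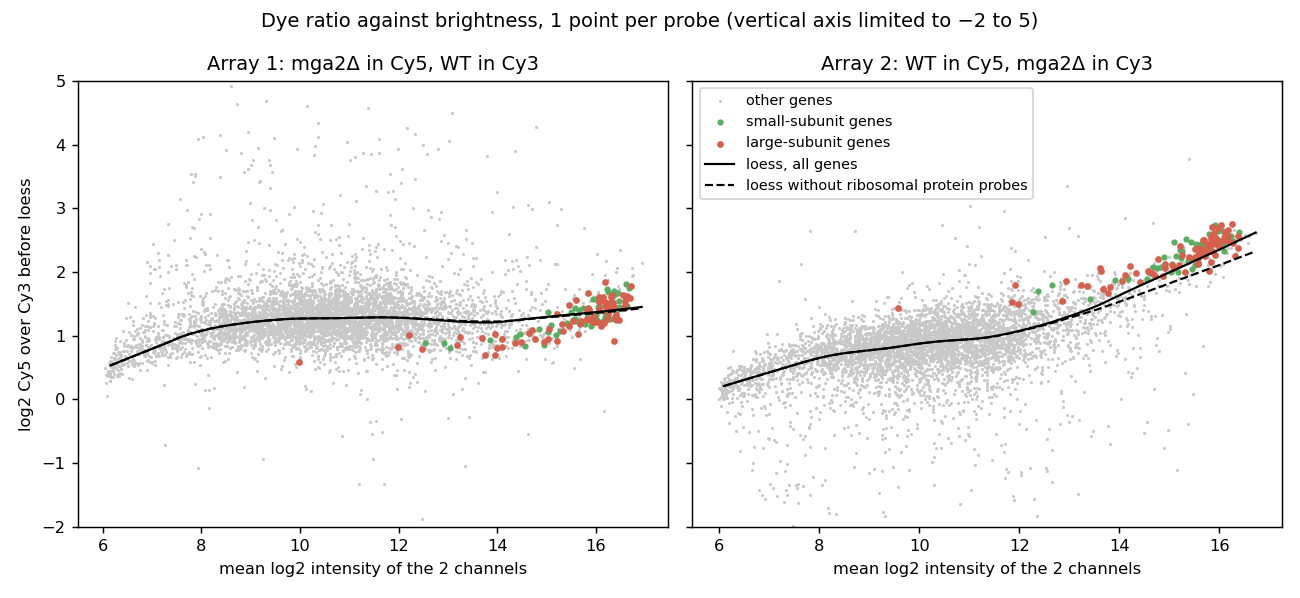
Log2 ratio of Cy5 over Cy3 before loess against the mean log2 intensity of both channels, 1 point per probe, on array 1 (left) and array 2 (right), with the loess curve through all genes (solid) and through all but the ribosomal protein probes (dashed). On array 1 the large-subunit genes (red) lie near the level of other genes, and on array 2 they rise above it towards the bright end, where the 2 curves part.

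The loess curve was also fitted without the ribosomal protein probes, meaning those with rpl or rps symbols. Stalk and ubiquitin fusion probes stayed in that curve. In this setting 19 of the 76 genes were lowered, 14 of them the same genes as before, where 11% of all genes tested were lowered. The median of the 76 genes was then −0.20, from −0.11 on array 1 and −0.35 on array 2, and 73 of 76 means were below 0. Among the 5 added genes were rpl2502 and rpl2702, for proteins uL23 and eL27, and rpl3801, for eL38. In the authors' deposited ratios, whose normalization is unstated, 23 members were lowered, where 22.9% of all genes tested were. Another setting centred the loess ratios on 10 spike-in RNAs, whose relative amounts in the 2 samples of an array were not established here. It moved the median of all genes to 0.19 and that of the large-subunit genes to 0.08. Of the 14 genes 1 remained called, rpl1603, where 1.83% of all genes tested were lowered. Centring on the median spike-in spot instead put the 2 medians at 0.06 and −0.04. The median of the members was below that of all genes by 0.11 with loess, a gap that spike-in centring leaves as it is because it adds 1 constant per array. It was 0.20 without the ribosomal protein probes, 0.07 in the deposited ratios, 0.05 in the signals processed by the scanner software and 0.66 with median centring.

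**Figure D4:**
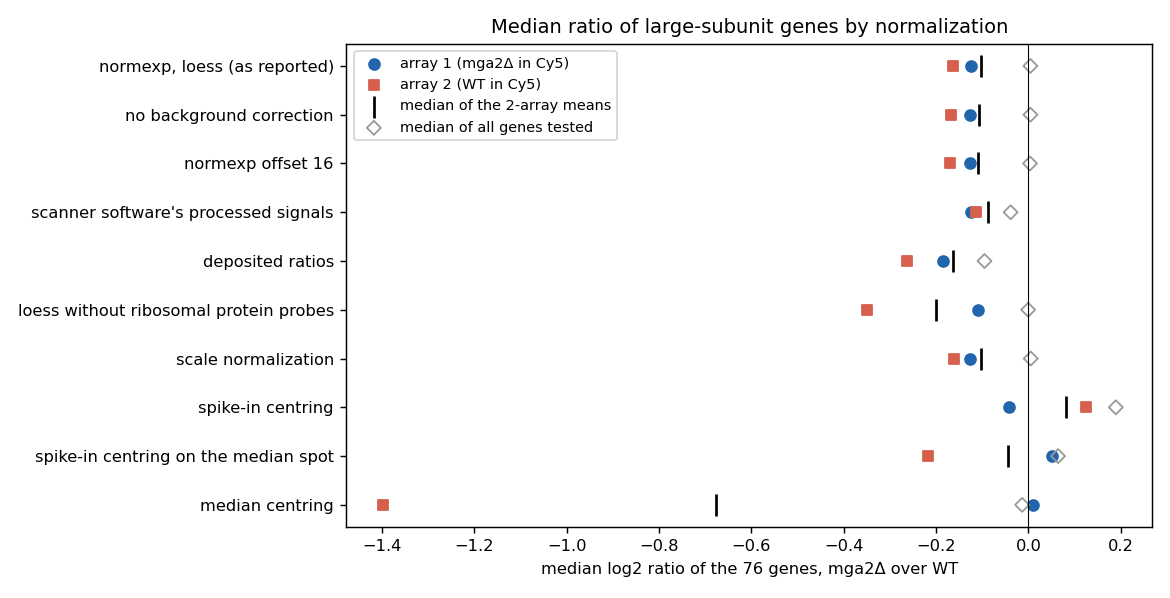
Median log2 ratio of mga2Δ over WT of the 76 large-subunit genes on array 1 (circles), on array 2 (squares) and of the 2-array means (bars) under each normalization, with the median of all genes tested (diamonds). The medians of the means lie below that of all genes in each row, and the arrays are farthest apart with median centring, at 0.01 and −1.40.

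Copies of the same protein were compared by the difference of their log2 ratios on each array, which cancels any shift of the array's centre but not one that depends on brightness. Of 34 large-subunit pairs 1 passed the test, where 10.7% of all 103 pairs of numbered copies in the table did. Of 23 small-subunit pairs 0 passed, and 10 pairs of genes with other symbols did. Among these 10 were copies of the stalk protein P2. The difference of rpp202 minus rpp203 was 0.88 ± 0.17 and that of rpp201 minus rpp202 −0.68 ± 0.07 (limma adjusted p = 0.0398 for both). The remaining pairs of stalk genes did not pass. At an unadjusted p under 0.05 there were 5 of 34 large-subunit pairs and 0 of 23 small-subunit pairs. Pairs of genes with other symbols also reached that level, the 10 that passed the test among them. No excess of large-subunit pairs is read from this count. In 21 pairs the difference had the same sign on both arrays and in 13 it did not. The median size was 0.15, with a median SD between arrays of 0.14, and 7 pairs differed by 0.3 or more. Whether each probe reads its own copy alone was not assessed, since the probe sequences were not used here.

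The pair that passed was rpl1602 and rpl1603, for uL13. The difference of rpl1602 minus rpl1603 was 0.60 on array 1 and 0.54 on array 2, a mean of 0.57 ± 0.04 (limma adjusted p = 0.0489). The ratio of rpl1602 was −0.08 and −0.07, close to 0 on both arrays, whereas that of rpl1603 was −0.64 in the mean. The third copy, rpl1601, lay between them at −0.34 and −0.12, and its difference from rpl1603, 0.41 ± 0.11, did not pass (limma adjusted p = 0.123). The WT log2 signals were 15.0 for rpl1601, 16.3 for rpl1602 and 10.1 for rpl1603, the widest gap in any large-subunit family. The call for rpl1602 and rpl1603 was made under 9 of 14 alternatives, with adjusted p from 0.0187 to 0.997; with median centring the difference was −0.16, and with the loess curve fitted without ribosomal protein probes it was 0.45 and did not pass.

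The eL30 genes differed by as much but less evenly. The difference of rpl3001 minus rpl3002 was 0.74 and 0.44, a mean of 0.59 ± 0.21 (limma adjusted p = 0.105). In the eL18 genes rpl1801 was below rpl1802 by 0.55 and 0.34, a mean difference of −0.45 ± 0.15 (limma adjusted p = 0.123). For eL34 the difference of rpl3401 minus rpl3402 was 0.28 and 0.42, a mean of 0.35 ± 0.10 (limma adjusted p = 0.168). In these 3 families 1 copy fell and the other lay nearer to 0, but the copies themselves did not differ past the threshold.

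The genes for eL38, a protein that in mice affects the translation of patterning genes, moved apart mainly on array 1. There rpl3801 minus rpl3802 was −0.78, against −0.17 on array 2, a mean of −0.48 ± 0.43 (limma adjusted p = 0.268). For uL23 the difference of rpl2501 minus rpl2502 was 0.47 and 0.20, a mean of 0.33 ± 0.19 (limma adjusted p = 0.214). Both pairs had the same sign on both arrays, with the arrays far apart.

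**Figure D5:**
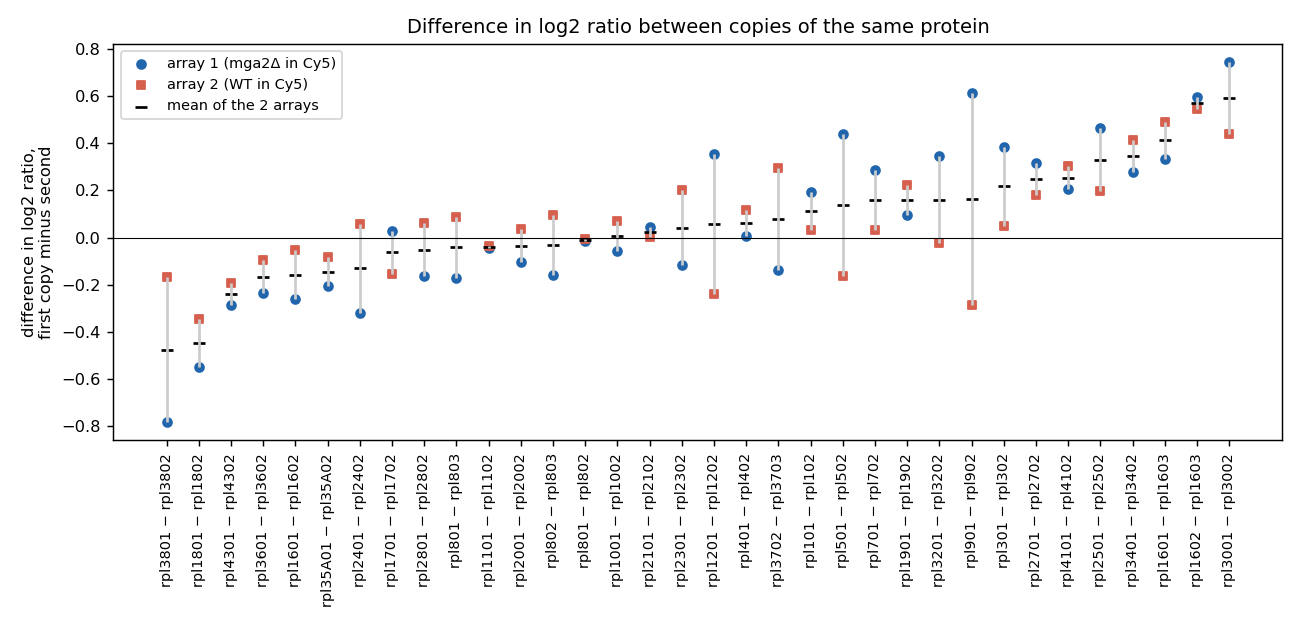
Difference in log2 ratio of mga2Δ over WT between the first and the second copy of each of 34 large-subunit pairs, on array 1 (circles) and array 2 (squares), with the mean as a bar. The pair rpl1602 and rpl1603 shows a large difference with close arrays, and the pairs near the middle change sign between arrays.

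Differences in ratio between copies followed differences in brightness. Over all 34 pairs the copy that was dimmer in WT had the lower ratio in 24. In 12 pairs the WT log2 signals differed by 1 or more, and in 11 of them the dimmer copy had the lower ratio. All pairs among rpl1601, rpl1602 and rpl1603 are in the 12 and share genes, so the 12 pairs are not independent. The exception was eL33, where rpl35A01 was brighter than rpl35A02 by 2.29 in WT log2 signal and had the lower ratio, −0.34 against −0.20. For uL1, rpl101 and rpl102 differed by 3.21 in WT signal and by only 0.11 ± 0.11 in ratio. Like the relation over single genes, this one was with loess ratios, and its cause was not tested.

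Several families showed little difference between copies. The 3 genes for uL2, a protein that lies at the peptidyl transferase centre, were at −0.06 ± 0.17 for rpl801, −0.05 ± 0.17 for rpl802 and −0.02 ± 0.35 for rpl803. Their WT signals were also close, between 15.9 and 16.1. The gene called rpl8 encodes another protein, eL8, and was at 0.04 ± 0.26. The uL16 genes rpl1001 and rpl1002 differed by 0.01 ± 0.09, the smallest difference of the 34 large-subunit pairs, and the uL5 genes rpl1101 and rpl1102 by −0.04 ± 0.01. For eL21, where both copies fell, the difference was 0.02 ± 0.03. The genes rpl15 and rpl1502, whose symbols are not numbered alike and which were not in the test, were at −0.03 and −0.31.

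Genes of neighbouring function are given for comparison, with no test between lists. Of 55 small-subunit genes 3 were lowered and 0 raised, a share of 5.45% beside the 10.9% of all genes tested that were lowered. Their median was −0.09, close to the −0.10 of the large-subunit genes. Between arrays 28 of them (50.9%) changed sign, beside 22.3% of all genes tested. The most lowered were rps2802 at −0.51 ± 0.11 and rps502 at −0.45 ± 0.14 (limma adjusted p = 0.00892 and 0.0158). Of all genes tested 10.9% were lowered and 18.4% raised, and of 9 genes for stalk P proteins and ubiquitin fusions 3 (33.3%) and 1 (11.1%). There rpp203 fell (−0.49 ± 0.03) while rpp202, another gene for the stalk protein P2, rose (0.39 ± 0.14; limma adjusted p = 0.00849 and 0.0251). No gene of this group was raised when the loess curve left out the rpl and rps probes, though the probes of this group still took part in that curve.

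Genes listed for 60S assembly and export, with the small-subunit factor bud23 among them, had a lower median than the large-subunit genes with loess. With median centring theirs was the higher, at −0.39 against −0.68. Of 39 listed genes measured 19 (48.7%) were lowered with loess and 0 raised, with a median of −0.32. Below 0 on both arrays were 32 (82.1%). Of all genes tested 10.9% were lowered and 37.6% were below 0 on both arrays. The export and recycling factor arx1 was at −0.57 ± 0.15 and the 5S assembly factor rrs1 at −0.52 ± 0.18 (limma adjusted p = 0.00683 and 0.0108). Of 22 genes for ribosomal protein gene transcription and the TORC1 pathway 3 were raised and 0 lowered, with a median of 0.12. The raised share, 13.6%, was below the 18.4% of all genes tested that were raised. They were tbp1, the TATA-binding protein, at 0.56 ± 0.17, rhb1, the GTPase that activates TORC1, at 0.40 ± 0.01, and maf1, a repressor of RNA polymerase III, at 0.37 ± 0.12 (limma adjusted p = 0.00797, 0.018 and 0.0297). Of 8 translation elongation genes 0 passed by limma, with 1 at an unadjusted p under 0.05. Their median was 0.20 with loess and −0.50 with median centring, and with loess the elongation factor genes tef102 and tef103 were at 0.35 ± 0.48 and 0.30 ± 0.28.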

How the data were processed

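Median intensity values of each spot and its local background were deposited as scanned, from Agilent Feature Extraction 10.5.1.1 per the file headers. The deposited processed intensities were corrected and dye-normalized by that software, and its log10 ratio of Cy5 over Cy3, per the file headers, served to set directions. The authors' deposited log2 ratios ran as mga2Δ over WT against it (correlations 0.986 on both arrays); how they were normalized is not stated. The deposited spot flags, of the kind other, gave background and outlier calls. Per the labels, 400 ng of total RNA was amplified per sample.

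Background was corrected by normexp (offset 50) and arrays by loess (limma 3.58.1, R 4.3.3; span 0.3, with control and outlier spots given no weight). Spots of a probe were averaged and the sign of array 2 was turned. Log2 signals of a single strain were taken after loess and Aquantile normalization of brightness between the arrays (limma). A probe needed 2 or more spots well above background on each array, in either channel, and was then tested with lmFit and eBayes (5.62 prior degrees of freedom), two-sided. Differences between copies were fitted likewise over 103 pairs (2.17 prior degrees of freedom). Both arrays lay on 1 slide. Names came from RefSeq ASM294v3: 5021 probes matched by locus tag, 3 by synonym and 33 not. The steps were tested on simulated data.

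Genes named are mga2, called members, the 5 highest and lowest ratios, the highest and lowest signals, all copies of the 5 families that differ most with 1 sign, and the 2 largest ratios of each related list. Other genes were named after their values were seen: further copies set beside these, rpl2502, rpl2702, rpp201, rpp202, tested families with small differences, maf1, bud23, noc201 and noc202. Members, lists and places in the subunit were chosen with earlier results of these data known. Of 45 listed assembly factors, 6 symbols were not matched. Among these was noc2, whose copies noc201 and noc202 were measured, at −0.47 and −0.36, but not counted in the list. The list did count bud23, a factor of the small subunit, at −0.17. Figures were made with Python 3.11.15, pandas 2.3.3 and matplotlib 3.10.9.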

Additional observations from a re-analysis of the deposited data

How the results depend on the processing

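With median centring, 0 large-subunit genes were lowered in place of 14, with a median of −0.68 in place of −0.10, and 0 pairs of copies were called in place of 1. Of all genes 26 were lowered in place of 541 and 146 raised in place of 915. No small-subunit gene was lowered (0 in place of 3; median −0.66 in place of −0.09), no assembly factor (0 in place of 19; median −0.39 in place of −0.32), and no stalk or ubiquitin fusion gene was lowered or raised (0 and 0 in place of 3 and 1; median −0.62 in place of −0.19). No transcription or TORC1 gene was raised (0 in place of 3; median 0.0883 in place of 0.12), and the elongation median was −0.50 in place of 0.20. Signs turned for rpl4302 (−0.52), rpl6 (−0.59), rpl13 (−0.60), rpl3001 (−0.58), rpl3802 (−0.46), tef102 (−0.42), tef103 (−0.45) and the differences of rpl1602 (−0.156) and rpl1601 (−0.0939) from rpl1603, of rpl3401 from rpl3402 (−0.0229) and of rpl1601 from rpl1602 (0.0619).

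With loess without ribosomal protein probes the medians were −0.20 (large subunit), −0.18 (small subunit) and 0.0974 (elongation). In that setting 7 small-subunit genes were lowered and 0 stalk genes raised, where 545 of all genes were lowered and 873 raised. It called 0 pairs, and rpl6 (−0.00503) and rpl13 (−0.00672) turned sign. With spike-in centring the large-subunit count was 1 and the median 0.0813; all genes lowered were 91. Small-subunit values were 0 and 0.0961, assembly factors 0 and −0.13, stalk genes 0 and −0.00771. The transcription list had 5 raised and a median of 0.30, and elongation 3 raised and 0.39. Of all genes tested 1161 were raised in this setting, with a median of 0.19. Signs turned for rpl3401 (0.0652), rpl1602 (0.11) and rpl1802 (0.17). On the median spike-in spot, added after seeing the data, 3 large-subunit genes were lowered (median −0.0437), 207 of all genes, 1 small-subunit gene, 3 assembly factors (−0.26) and 1 stalk gene. There 1 elongation gene was raised, as were 840 of all genes. The transcription median was 0.18, beside 0.06 for all genes, and rpl1802 was at 0.0425.

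In the deposited ratios 23 large-subunit genes were lowered (median −0.16), 1138 of all genes, 13 small-subunit genes and 5 stalk genes. There 0 stalk genes and 750 of all genes were raised, and 4 large-subunit pairs were called. Medians were −0.43 for assembly factors, 0.0372 with 2 lowered for transcription, −0.39 for stalk genes and 0.0700 for elongation, and rpl6 (−0.0802) and rpl13 (−0.0396) turned sign. With the processed signals 812 of all genes and 1 transcription gene were lowered, the assembly and transcription medians were −0.38 and 0.0645 and rpl1802 was at 0.00243. With 2.81 prior degrees of freedom, added after seeing the data, 4 large-subunit genes were lowered, 176 of all genes (493 raised), 1 small-subunit gene, 2 assembly factors and 1 stalk gene, 1 transcription gene and 0 stalk genes were raised, and 0 pairs were called. Pairs called were 2 with no background correction and 0 with offset 16 and with scale normalization. Scale normalization gave 6 lowered small-subunit, 5 raised transcription and 2 raised elongation genes, where 695 of all genes were lowered and 1062 raised. Trend and robust settings gave 5 raised transcription and 0 raised stalk genes, where 1024 of all genes were raised. At an adjusted p of 0.10, 814 of all genes and 8 small-subunit genes were lowered, and 1138 of all genes were raised. In the transcription list 2 genes were lowered and 6 raised.

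On single arrays the medians ranged from −0.16 to −0.12 (large subunit), −0.15 to −0.03 (small subunit), −0.34 to −0.32 (assembly), 0.0569 to 0.0949 (transcription), −0.26 to −0.17 (stalk) and 0.13 to 0.25 (elongation). The cause of these changes was not tested. No large-subunit gene was raised in any of the 14 alternatives with a test, and the 14 called genes had means below 0 in each. The alternatives with mean spot signals and with promoter motifs were not run. No paired analysis was possible because each array already is 1 pair and there is 1 group.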
